A study of Mus musculus with 12 samples.

Results

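MHC class I antigen presentation was followed through 10 genes, which were the rows named H2-K1, H2-D1, H2-Q4, H2-Q6, H2-Q7, B2m, Tap1, Tap2, Psmb8 and Psmb9 among the 52858 genes of the deposited tables. RNA was sequenced from 12 isolated mouse hearts, with 3 hearts in each of 4 groups. The C57-non-IR and C57-IR groups came from C57BL/6J mice, and the groups Slit2-non-IR and Slit2-IR came from Slit2-Tg mice, which carry a human Slit2 cDNA behind the CMV promoter, a promoter that is not restricted to the heart. The transgene was first made in C57 × CBA F1 oocytes. All hearts, from adult male mice, were perfused on a Langendorff apparatus without circulating blood. IR hearts went through no-flow global ischemia and then reperfusion, whereas non-IR hearts were perfused without interruption. The comparisons ask whether IR, the transgene or their combination changed the class I genes in whole heart tissue. Genotype comes from the sample labels, and the IR status rests on matching the label letters to the study's 4 named groups.

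MHC class I molecules display peptides from inside the cell at its surface, where cytotoxic T cells and natural killer cells read them. A class I molecule is a heavy chain, here encoded by the H2 genes, bound to the light chain beta-2 microglobulin, encoded by B2m. The peptides are cut by the proteasome, whose interferon-inducible catalytic subunits include Psmb8 and Psmb9, and Tap1 and Tap2 form the transporter that carries the peptides into the endoplasmic reticulum. Interferons, interferon regulatory factors, NF-kB and the coactivator Nlrc5 are known to raise transcription of these genes, and cardiomyocytes are known for low surface class I compared with endothelial and immune cells. H2-K1 and H2-D1 are the classical heavy chains of C57BL/6J mice, and the Qa genes H2-Q4, H2-Q6 and H2-Q7 are nonclassical ones.

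B2m lies on chromosome 2 and the other genes lie on chromosome 17. RefSeq promoter windows (build GRCm38.p6, the same assembly as mm10) from 250 bases before to 50 bases after the start of transcription matched 9 of the 10 genes, and Tap2 had no entry. The heavy-chain promoters are shown because these 5 genes had the largest estimates in C57 hearts after IR and their sequences can be laid side by side. Capitals mark the letters GGGATTNCC (the class I enhancer A, an NF-kB type element) and TTTCACTTC (the core of the interferon response element). They also mark CCAAT with its reverse complement ATTGG, the letters of the Y box and of any other CCAAT box. The first 2 of these motifs were written down after the sequences had been read. The stretches were chr17:34000335-34000467 on the minus strand for H2-K1 and, on the plus strand, chr17:35262914-35263045 for H2-D1, chr17:35379434-35379566 for H2-Q4, chr17:35424668-35424799 for H2-Q6 and chr17:35439013-35439143 for H2-Q7.
H2-K1: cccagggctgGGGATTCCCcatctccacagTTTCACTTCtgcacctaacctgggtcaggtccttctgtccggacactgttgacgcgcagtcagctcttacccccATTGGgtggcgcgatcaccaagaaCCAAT
H2-D1: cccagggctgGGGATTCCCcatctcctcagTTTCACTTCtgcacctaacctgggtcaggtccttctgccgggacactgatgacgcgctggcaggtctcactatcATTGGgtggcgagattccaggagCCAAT
H2-Q4: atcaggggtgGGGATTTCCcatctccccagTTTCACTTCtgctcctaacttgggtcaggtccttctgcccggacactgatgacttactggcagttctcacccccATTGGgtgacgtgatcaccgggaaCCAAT
H2-Q6: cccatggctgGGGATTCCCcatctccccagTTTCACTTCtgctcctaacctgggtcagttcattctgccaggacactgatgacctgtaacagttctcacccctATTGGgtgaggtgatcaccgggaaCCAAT
H2-Q7: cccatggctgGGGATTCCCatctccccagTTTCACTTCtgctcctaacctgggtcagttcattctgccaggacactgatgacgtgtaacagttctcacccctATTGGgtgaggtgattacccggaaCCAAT

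The 5 stretches were 82.7% to 97% identical after pairwise global alignment, and H2-Q6 and H2-Q7 were the closest pair. All 5 held GGGATTNCC, TTTCACTTC and CCAAT, which were found on either strand in 0.938%, 0.505% and 37.4% of 32851 promoter windows of the same length. The fixed letters GAAANNGAA, TTCNNNGAA, GGGANTTCC and TGACGTCA were present in 8.56%, 8.3%, 1.68% and 1.79% of all windows. Among the members, B2m held GAAANNGAA, Psmb8 held TTCNNNGAA, H2-Q4 held GGGANTTCC at the place of its GGGATTNCC, and no member held TGACGTCA. A match is a description of letters and not evidence of binding.

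The B2m promoter (chr2:122147538-122147638, plus strand) is shown for the light chain, with the interferon-type letters GAAANNGAA and the letters ATTGG in capitals. Tap1 and Psmb9 are read in opposite directions from the same stretch, 225 bases between their RefSeq starts (chr17:34187331-34187555, printed on the plus strand), which is shown because it lies between a transporter gene and an immunoproteasome gene. Capitals mark CCAAT.
B2m: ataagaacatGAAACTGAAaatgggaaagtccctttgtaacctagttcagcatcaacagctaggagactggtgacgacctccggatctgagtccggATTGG
Tap1 and Psmb9: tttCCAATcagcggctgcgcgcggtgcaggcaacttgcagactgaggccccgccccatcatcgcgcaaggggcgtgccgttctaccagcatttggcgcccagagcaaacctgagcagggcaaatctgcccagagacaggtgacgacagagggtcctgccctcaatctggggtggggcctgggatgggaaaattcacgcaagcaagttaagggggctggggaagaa

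Levels are given as FPKM, fragments scaled by gene length and sequencing depth. Comparing FPKM between genes rests on the gene lengths given with the values, since a longer length lowers FPKM for the same reads. The lengths were 2085 bases for H2-Q6, 4265 for H2-Q7, 2736 for Psmb8 and 3659 for Psmb9. Whether they match the transcripts present in the heart was not tested. Orders of level and ratios between genes depend on them. All 10 genes passed the filter on low values, with 140 to 10427 reads per gene and library in libraries of 16601154 to 24841291 reads on genes. Replicate numbers are those of the labels. The limma p-values rest on the spread between hearts within groups, pooled over all 4 groups in 1 fit. A heart that stands apart thus also moves the p-values of comparisons that do not include it. C57-IR replicate 2 stood apart: it was the highest of the 12 libraries for 10 of 10 members, as it was for 1535 of all 15240 genes tested. C57-IR replicate 1 was the lowest of its group for 10 of 10 members. In the replicate 1 libraries of the 4 groups the FPKM of Ttn, the giant sarcomere protein titin, was 23.6, 49.7, 41.4 and 39.9, against 8.65 to 13.0 in the other 8 libraries. Slit2-IR replicate 1 held atrial transcripts, with the atrial light chain Myl7 at 1049 FPKM, against 108 FPKM in C57-IR replicate 2 and 0.0817 to 12.5 FPKM elsewhere. Mouse Slit2 was at 0.0847 to 0.813 FPKM in every library, which does not check the human transgene.

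The light chain and the classical heavy chains were by far the most abundant class I transcripts in the heart. Mean FPKM over 12 libraries was 298.2 for B2m, 123 for H2-D1, 87.0 for H2-K1, 17.8 for H2-Q4, 14.1 for H2-Q6, 6.40 for Tap2, 5.68 for Psmb8, 3.28 for H2-Q7, 2.70 for Psmb9 and 2.52 for Tap1. B2m exceeded H2-D1, H2-D1 exceeded H2-K1, H2-K1 exceeded H2-Q4, H2-Q4 exceeded H2-Q6 and H2-Q6 exceeded Tap2 in 12 of 12 libraries. Tap2 and Psmb8 kept their order in 8 of 12 libraries and Psmb9 and Tap1 in 8 of 12, so that these neighbours did not differ beyond their spread. H2-Q7 exceeded Psmb9 in 10 of 12 libraries and was exceeded by Psmb8 in 11 of 12.

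Among the heavy chains, H2-K1 (chr17:33996017-34000333, minus strand, protein coding), which encodes the classical K chain, was at 77.5, 80.0 and 73.5 FPKM in C57-non-IR hearts and at 76.0, 162.0 and 99.0 FPKM in C57-IR hearts, replicates 1 to 3. In Slit2-non-IR hearts it was at 56.8, 67.3 and 88.4 FPKM, and in Slit2-IR hearts at 83.7, 81.5 and 97.8 FPKM. The C57-non-IR hearts lay close together, and both IR groups overlapped their controls. H2-D1 (chr17:35262730-35267499, plus strand), the classical D chain, had mean levels of 111 ± 7.97 FPKM in C57 hearts without IR and 152 ± 55.0 FPKM after it, and of 102 ± 25.0 and 126 ± 20.7 FPKM in the same order in Slit2-Tg hearts (SD, n = 3). Its C57-IR hearts ranged from 95.1 to 204.9 FPKM, and the lowest of them was below all 3 C57-non-IR hearts.

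H2-Q4 (chr17:35379617-35385290, plus strand), a nonclassical Qa chain, was at 14.3, 15.5 and 13.1 FPKM in C57-non-IR hearts and at 15.9, 35.7 and 22.5 FPKM in C57-IR hearts. The Slit2-non-IR hearts held 8.65, 12.7 and 17.8 FPKM and the Slit2-IR hearts 17.7, 19.6 and 20.3 FPKM. Every C57-IR heart was above every C57-non-IR heart, while the lowest Slit2-IR heart was just under the highest Slit2-non-IR heart. H2-Q6 (chr17:35424850-35430055, plus strand), a Qa-2 family chain, was at 12.3, 10.4 and 8.48 FPKM in C57-non-IR hearts and at 15.5, 33.8 and 15.9 FPKM in C57-IR hearts. Its Slit2-non-IR hearts were at 7.58, 8.59 and 15.7 FPKM and its Slit2-IR hearts at 12.3, 12.3 and 16.0 FPKM. The C57 groups were again apart, and the Slit2 groups overlapped through Slit2-non-IR replicate 3.

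H2-Q7 (chr17:35439155-35443773, plus strand), the other Qa-2 chain, was at 3.43, 2.53 and 2.44 FPKM in C57-non-IR hearts and at 3.25, 6.69 and 4.18 FPKM in C57-IR hearts. The Slit2-non-IR hearts were at 1.91, 2.64 and 3.86 FPKM and the Slit2-IR hearts at 2.40, 2.65 and 3.42 FPKM. All groups overlapped, with C57-IR replicates 2 and 3 above every other library. H2-Q6 and H2-Q7 were also picked by the study from these same hearts, so their direction here is not independent evidence. The study's list of genes raised by IR in C57 hearts also holds H2-K1 and H2-Q4. It holds Irf1, Irf8, Rela, Stat3, Socs3, Calr and Lilrb4a as well, so the rise of these genes given here is not independent either. In the GENCODE vM21 transcripts 10.8% of the 100-base words of H2-Q6 also occurred in another gene (8.36% in H2-Q7), as did 12% of those of H2-Q7 (5.56% in H2-Q10). The shares were 0.957% for H2-K1, 3.59% for H2-D1 and 2.16% for H2-Q4, and 0% for the other 5 members, so the split of reads between the Qa genes is uncertain. H2-Q8 and H2-Q9 were not analysed here.

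B2m (chr2:122147686-122153083, plus strand), the light chain of all these molecules, was at 255, 320 and 263 FPKM in C57-non-IR hearts and at 224, 495 and 418 FPKM in C57-IR hearts. Slit2-non-IR hearts held 180.0, 243 and 319 FPKM and Slit2-IR hearts 232, 273 and 358 FPKM. Replicate 1 was the lowest heart of each of the 4 groups for B2m, H2-D1 and Psmb8, which was the case for 3 of 10 members and for 6.59% of all genes tested. H2-K1 and H2-D1 kept nearly the same proportion in every heart, with an H2-K1 to H2-D1 ratio of 0.633 to 0.799.

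Among the peptide transporter genes, Tap1 (chr17:34187553-34197225, plus strand) was at 2.11, 2.50 and 1.92 FPKM in C57-non-IR hearts and at 2.17, 5.31 and 2.26 FPKM in C57-IR hearts. Slit2-Tg hearts ranged from 1.81 to 2.76 FPKM without IR and from 2.06 to 3.33 FPKM after IR. A single library, C57-IR replicate 2, set the C57-IR mean. Tap2 (chr17:34203527-34216321, plus strand) was steadier, at 6.41 ± 0.684, 7.04 ± 1.51, 5.71 ± 1.0 and 6.46 ± 0.687 FPKM (SD, n = 3) in C57 hearts without and with IR and in Slit2-Tg hearts without and with IR.

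The immunoproteasome genes overlapped between the groups of every comparison. Psmb8 (chr17:34197721-34201454, plus strand), the chymotrypsin-like subunit that replaces Psmb5, was at 4.16, 7.13 and 6.00 FPKM in C57-non-IR hearts and at 3.20, 9.91 and 6.18 FPKM in C57-IR hearts. Its range was 3.95 to 6.71 FPKM in Slit2-non-IR and 3.76 to 7.59 FPKM in Slit2-IR hearts. Psmb9 (chr17:34181988-34187764, minus strand), which replaces Psmb6, had means of 3.01 ± 0.204, 2.93 ± 0.831, 2.44 ± 1.10 and 2.41 ± 0.447 FPKM in the same group order (SD, n = 3). The gene models of Psmb9 and Tap1 overlap by 212 bases on opposite strands, and how strand was used in counting is not given in the sources used here.

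**Figure D1:**
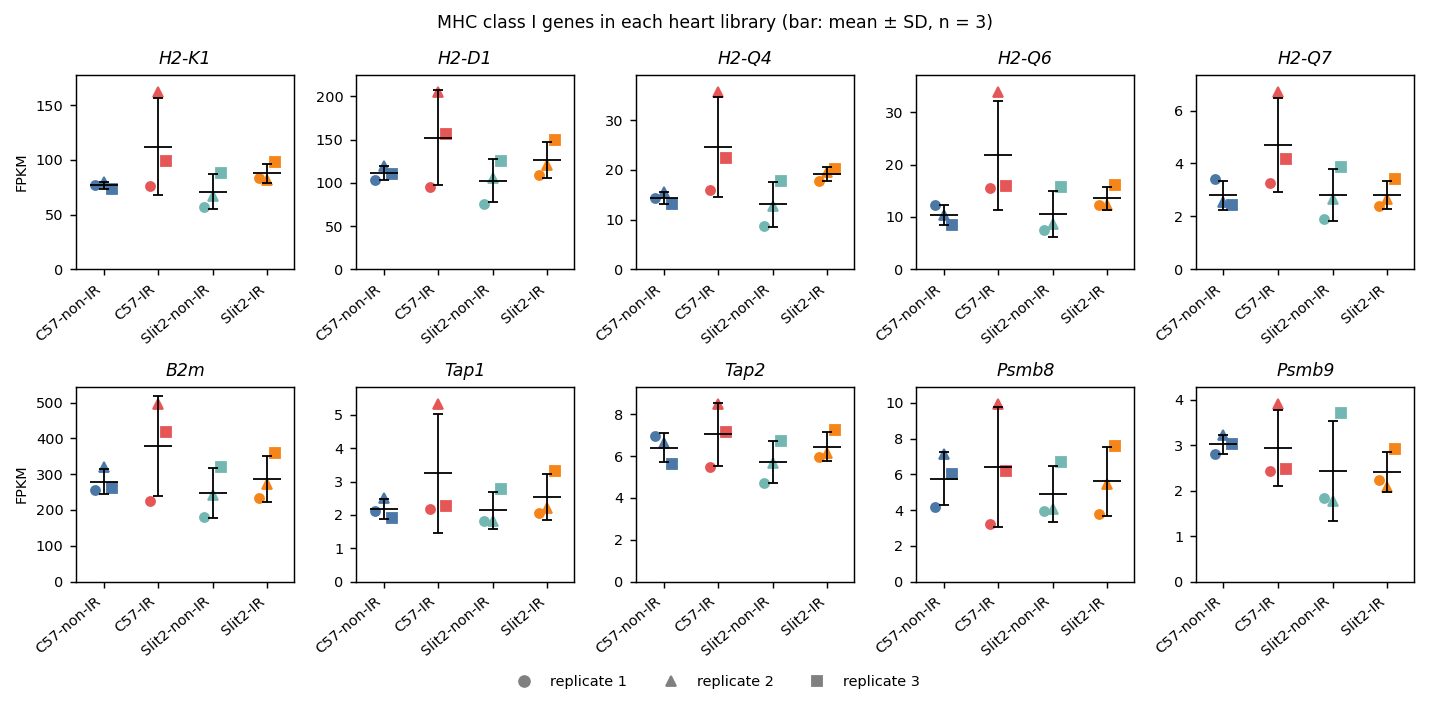
FPKM of each class I gene (vertical axes, linear, starting at 0) in the 3 hearts of each group, with replicates 1, 2 and 3 drawn as circles, triangles and squares and the bars giving the mean ± SD. The C57-IR replicate 2 triangle is the highest point of all 10 panels, from 494.6 FPKM for B2m to 3.89 FPKM for Psmb9.

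**Figure D2:**
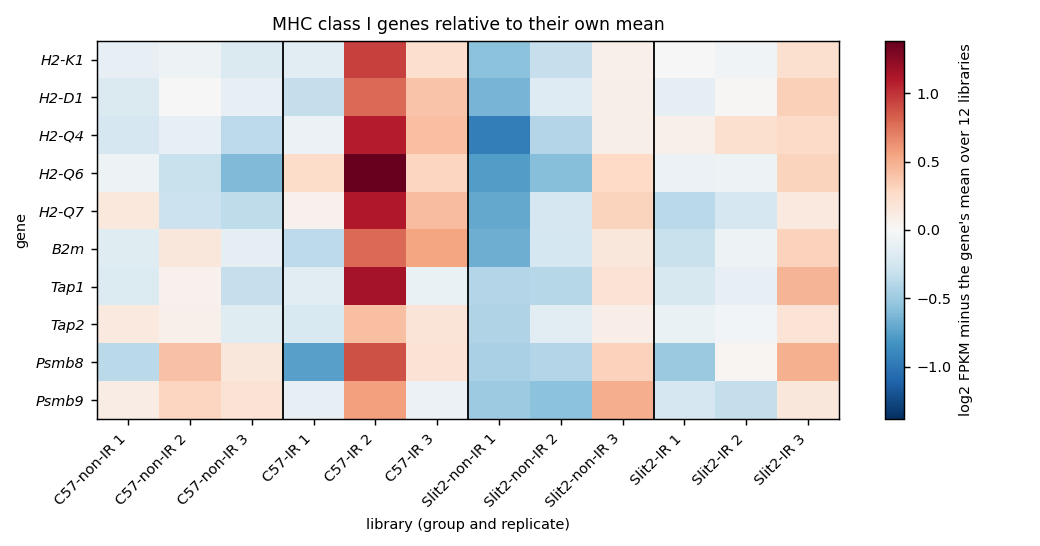
Log2 FPKM of the 10 genes (rows) in the 12 libraries (columns) minus the gene's own mean, red above and blue below it. The C57-IR replicate 2 column is red throughout, and Slit2-non-IR replicate 1 is the lowest library for 8 of 10 genes.

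In C57-IR against C57-non-IR hearts the estimates were positive for 9 of 10 members, largest for the Qa heavy chains, and no member passed the threshold of an adjusted p under 0.05 in limma (smallest adjusted p 0.315), where 0.459% of all genes did. At an unadjusted p under 0.05, 3 of 10 members were higher, beside 4.55% of all genes. These were H2-Q6, with a log2 fold change of 0.92 ± 0.31 (SE, limma adjusted p = 0.315), H2-Q4, with 0.68 ± 0.27 (limma adjusted p = 0.454), and H2-Q7, with 0.55 ± 0.23 (limma adjusted p = 0.492). Fold changes are on the scale of log2(FPKM + 1), which understates them for genes of low FPKM, and the ratios of the mean FPKM were 2.09 for H2-Q6, 1.73 for H2-Q4 and 1.68 for H2-Q7. The groups did not overlap for 2 of 10 members, H2-Q4 and H2-Q6, beside 6.75% of all genes that were higher without overlap. H2-K1 had an estimate of 0.47 (95% interval −0.05 to 0.99), H2-D1 of 0.38 (−0.18 to 0.95), B2m of 0.37 (−0.27 to 1.01) and Tap1 of 0.35 (−0.20 to 0.89). Tap2, Psmb8 and Psmb9 had estimates of 0.10, 0.06 and −0.05, with intervals of −0.23 to 0.44, −0.68 to 0.79 and −0.50 to 0.40. The median over the 10 members was 0.38, beside 0.001 over all genes tested.

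Single libraries decided how many members were called in this comparison. Without C57-IR replicate 2, 0 of 10 members had an unadjusted p under 0.05, and the log2 fold changes were 0.56 for H2-Q6 (limma adjusted p = 0.827), 0.38 for H2-Q4 (limma adjusted p = 0.972) and 0.31 for H2-Q7 (limma adjusted p = 0.993), with a median of 0.14 over the members. The call of H2-Q4 was also lost without C57-non-IR replicate 1 (0.68) or 3 (0.62), and that of H2-Q7 without C57-non-IR replicate 2 (0.50) or 3 (0.48) or without C57-IR replicate 3 (0.60). Without C57-IR replicate 1, 6 of 10 members were called at that threshold, beside 1036 of 15240 genes higher, with a median of 0.70 over the members. C57-IR replicate 2 was 1.34-fold (Tap2) to 2.4-fold (Tap1) above the mean of the other C57-IR hearts. The summed FPKM of 11 macrophage and dendritic cell markers, none of which was at 0 throughout, was 446.6 in C57-IR replicate 2, within the range of the C57-non-IR hearts, 257.2 to 497.4, and was lowest in replicate 1 in all 4 groups, at 219.1 in C57-IR replicate 1. Across groups the sum spanned 219.1 to 496.6 in C57-IR, 313.9 to 439.4 in Slit2-non-IR and 246.8 to 376.9 in Slit2-IR hearts, and the part of such cells in the class I values was not tested. All 9 markers of T and natural killer cells stayed under 1 FPKM in every library, with sums of 0.322 to 0.943 FPKM. The 4 general leukocyte markers summed to 15.5 FPKM in C57-IR replicate 2, the highest of the 12 libraries, which ranged from 8.88 to 15.5 FPKM, and their part in the class I values of that library was not tested. Sums of 7 fibroblast markers, 108.8 to 218.6 FPKM, and of 5 smooth muscle and pericyte markers, 132.1 to 296.6 FPKM, were like the macrophage sum lowest in replicate 1 in all 4 groups. The 7 endothelial markers summed to 154.8 to 232.1 FPKM. Markers of lung summed to 9.51 FPKM and those of adipose tissue to 14.1 FPKM in C57-IR replicate 2. Over the 12 libraries these sums were 0.121 to 12.4 and 0 to 17.2 FPKM. Adipose sums were 0 to 0.847 FPKM in C57-non-IR and 0.772 to 10.02 FPKM in Slit2-IR hearts, all below that of C57-IR replicate 2. Lung sums were 0.279 to 9.74 FPKM in C57-non-IR and 0.121 to 0.257 FPKM in Slit2-IR hearts. Atrial markers summed to 232.7 FPKM in C57-IR replicate 2, 19.89 to 86.99 FPKM in C57-non-IR and 67.34 to 1714 FPKM in Slit2-IR hearts. The part of these tissues in the class I values was not tested. In whole tissue, fewer cells of a type and less RNA per cell cannot be told apart.

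**Figure D3:**
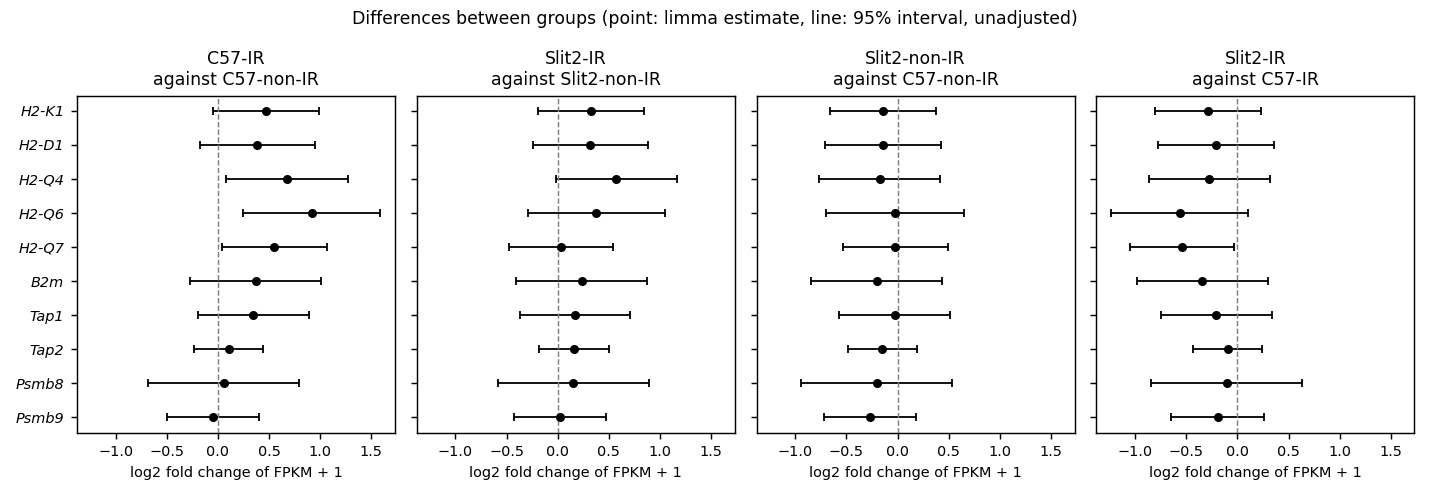
Log2 fold change of FPKM + 1 (horizontal axis) of each class I gene in the 4 comparisons between groups, with the limma estimate as a point and its unadjusted 95% interval as a line. The intervals of H2-Q4, H2-Q6 and H2-Q7 lie above 0 in C57-IR against C57-non-IR hearts, and that of H2-Q7 lies below 0 in Slit2-IR against C57-IR hearts.

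Within the Slit2-Tg genotype, all 10 estimates for IR (Slit2-IR over Slit2-non-IR) were positive, and 7 of 10 were smaller than in C57 hearts, the exceptions being Tap2, Psmb8 and Psmb9 (0.16, 0.15 and 0.03). None passed an adjusted p under 0.05 (0.525% of all genes did) or an unadjusted p under 0.05 on the higher side (6.15% of all genes did), and no member was higher without overlap, beside 8.65% of all genes. The largest estimate was that of H2-Q4, with a log2 fold change of 0.57 ± 0.27 (SE, limma adjusted p = 0.462). Same-numbered hearts of these groups deviated together weakly, with correlations of 0.143 to 0.294, and the labels name no pairing. With the replicate number as a block, H2-Q4 passed the unadjusted threshold (limma adjusted p = 0.298). Thus 1 of 10 members was called, beside 7.85% of all genes in that fit. Without Slit2-non-IR replicate 3, H2-Q4 (0.81) and H2-Q6 (0.67) were called at that threshold, beside 947 of 15240 genes higher. Without C57-IR replicate 2, a heart outside this comparison, H2-Q4 was also called, at an unchanged 0.57 (limma adjusted p = 0.317). In that fit 966 of 15240 genes were higher at the unadjusted threshold. H2-Q6, H2-K1 and H2-D1 followed with 0.38, 0.32 and 0.32, whose intervals reached from −0.29 to 1.05, −0.20 to 0.84 and −0.24 to 0.88. H2-Q7 stood at 0.03 (−0.48 to 0.54) and Psmb9 had an interval of −0.43 to 0.48. The median over the members was 0.20, beside 0.005 over all genes, and was 0.074 without Slit2-non-IR replicate 1 and 0.40 without Slit2-non-IR replicate 3.

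Averaged over both genotypes, the estimates for IR were led by the Qa chains H2-Q6 and H2-Q4, while the Qa chain H2-Q7, at 0.29 ± 0.16 (SE, limma adjusted p = 0.443), lay below H2-K1, H2-D1 and B2m. H2-Q6 had a mean log2 fold change of 0.65 ± 0.22 (SE, limma adjusted p = 0.147), H2-Q4 of 0.62 ± 0.19 (limma adjusted p = 0.112) and H2-K1 of 0.40 ± 0.17 (limma adjusted p = 0.271). These 3 of 10 members were higher at an unadjusted p under 0.05, beside 7.93% of all genes, and 0 of 10 passed the adjusted threshold, beside 3.49% of all genes. Without C57-IR replicate 2 the estimates were 0.48 for H2-Q4 (limma adjusted p = 0.213), 0.47 for H2-Q6 (limma adjusted p = 0.265) and 0.25 for H2-K1 (limma adjusted p = 0.455). The first 2 of these were called at the unadjusted threshold, beside 964 of 15240 genes higher. The call of H2-K1 was also lost, at 0.32 to 0.41, without any one C57-non-IR heart, Slit2-non-IR replicate 1 or 2, or Slit2-IR replicate 3. Without Slit2-non-IR replicate 3 there were 5 members called, beside 1178 of 15240 genes higher, and without C57-IR replicate 1 there were 6, beside 1524. In the latter fit 1 member, H2-Q4, passed the adjusted threshold, beside 533 genes higher and 180 lower. Psmb9 was at −0.01 (95% interval −0.33 to 0.31), Psmb8 at 0.10 (−0.42 to 0.63) and Tap2 at 0.13 (−0.11 to 0.37).

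The class I genes of the Slit2-Tg line without IR were seen by setting Slit2-non-IR beside C57-non-IR. This compares 2 mouse lines, and an effect of the transgene cannot be told apart from other differences between the lines. All 10 estimates were negative and small, from −0.27 for Psmb9 to −0.02 for H2-Q7, with a median of −0.15 beside −0.003 over all genes. No member was called by the adjusted threshold (0.0394% of all genes), by an unadjusted p under 0.05 on the lower side (1.77% of all genes) or by groups without overlap on the lower side (4.57% of all genes). The 95% intervals were widest for Psmb8, −0.94 to 0.54, and H2-Q6, −0.70 to 0.65, and narrowest for Tap2, −0.49 to 0.19. Slit2-non-IR replicate 1 was the lowest of the 12 libraries for 8 of 10 members, and without it the median was 0.02. Without Slit2-non-IR replicate 3, Psmb9 was called at the unadjusted threshold, at −0.52, beside 356 of 15240 genes lower.

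In Slit2-IR against C57-IR hearts, which shares the C57-IR libraries with the IR comparison above, H2-Q7 was the one member with an unadjusted p under 0.05. Its log2 fold change was −0.54 ± 0.23 (SE, limma adjusted p = 1.0), with mean levels of 2.82 ± 0.530 FPKM (Slit2-IR) and 4.71 ± 1.78 FPKM (C57-IR), ± SD over 3 hearts. This count of 1 of 10 stands beside 1.38% of all genes on the lower side, and 0.0459% of all genes passed the adjusted threshold, none of them a member. H2-Q6 followed with −0.56 ± 0.31 (SE, limma adjusted p = 1.0) and did not pass the unadjusted threshold. No member was lower without overlap, beside 3.44% of all genes. With the reads of H2-Q6 and H2-Q7 added up, the estimate was −0.59 ± 0.29 (SE, limma adjusted p = 1.0), which was over the unadjusted threshold as well. Without C57-IR replicate 2, H2-Q7 was at −0.31 and no longer called, H2-K1, H2-D1, H2-Q4, Tap1, Tap2 and Psmb8 turned positive, at 0.01 to 0.23, and the median over the members moved from −0.24 to 0.01. The call of H2-Q7 was also lost without C57-IR replicate 3 (−0.59), Slit2-IR replicate 1 (−0.46) or Slit2-IR replicate 2 (−0.51). Without C57-IR replicate 1 the median was −0.52 and 5 members were called at the unadjusted threshold, beside 419 of 15240 genes lower.

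**Figure D4:**
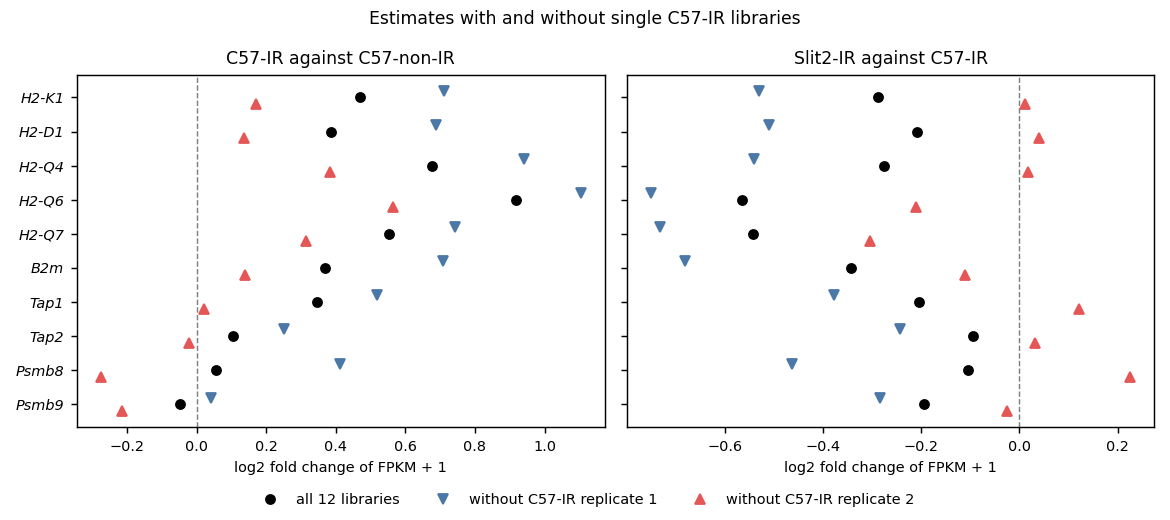
Log2 fold change of FPKM + 1 (horizontal axes) of each class I gene with all 12 libraries, without C57-IR replicate 1 and without C57-IR replicate 2. Leaving out replicate 2 brings the Slit2-IR against C57-IR estimate of H2-K1 to 0.01 and that of Psmb8 to 0.23, and leaving out replicate 1 takes the C57-IR against C57-non-IR estimate of H2-Q6 to 1.10.

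Whether IR acted differently on the class I genes in the 2 genotypes was tested by the interaction term. No member had an unadjusted p under 0.05, beside 0.787% of all genes on the negative side, and no gene of the whole table passed the adjusted threshold (0% in limma, with 164 positive and 120 negative terms at an unadjusted p under 0.05, and 0 genes also by limma-voom). H2-Q6 and H2-Q7 had the most negative terms, −0.54 (95% interval −1.49 to 0.41) and −0.52 (−1.24 to 0.20), and the median over the members was −0.12. That median was 0.17 without C57-IR replicate 2. Without C57-IR replicate 1, H2-Q7 was called at the unadjusted threshold, at −0.71, beside 177 of 15240 genes with negative terms. The mean Slit2-Tg effect over both conditions was negative for 10 of 10 members, with a median of −0.22. Without C57-IR replicate 2 that median was −0.072 and Psmb8 and Tap1 were positive, at 0.012 and 0.046. Without C57-IR replicate 1 it was −0.33, with 4 members called at the unadjusted threshold, beside 561 of 15240 genes lower. Without Slit2-non-IR replicate 3 there were 3 members called, H2-Q6, H2-Q7 and Psmb9, beside 321 of 15240 genes lower. With all 12 libraries the effect called none of them at an adjusted p under 0.05 (0.131% of all genes) or at an unadjusted p under 0.05 on the lower side (2.13% of all genes), and the smallest unadjusted p in limma was 0.114, for H2-Q7. By limma-voom on reads recovered from the tables, 0 of 10 members passed the adjusted threshold in each of the 7 comparisons.

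The balance between paired genes was compared within libraries by exact two-sided permutation tests, which cannot give a p below 0.1 for 3 against 3 hearts. In 24 tests, of 6 ratios in 4 comparisons, the smallest exact p was 0.1, for Psmb10 to Psmb7 in Slit2-non-IR (0.77 ± 0.06) over C57-non-IR hearts (0.889 ± 0.065, SD), and every adjusted p was 1. The Psmb8 to Psmb5 ratio, immunoproteasome over constitutive subunit, was 0.0553 ± 0.0199 (C57-non-IR) and 0.065 ± 0.0305 (C57-IR), ± SD over 3 hearts. Psmb9 to Psmb6 was 0.0458 ± 0.00784 and 0.0451 ± 0.00897 in the same groups (SD, n = 3). Psmb10, the remaining inducible subunit, was near the level of its counterpart Psmb7, with ratios of 0.658 to 1.05 over the 12 libraries. The Tap1 to Tap2 ratio was 0.34 ± 0.0354 (C57-non-IR) and 0.446 ± 0.162 (C57-IR), ± SD over 3 hearts, and its highest value, 0.627, was that of C57-IR replicate 2. Psmb5 itself, a constitutive subunit, had a log2 fold change of −0.47 in Slit2-non-IR against C57-non-IR hearts (limma adjusted p = 1.0, unadjusted p = 0.0192).

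Around the members, several listed transcription regulators of the class I genes rose after IR. Of 19 such regulators, 4 passed the adjusted threshold in the mean IR effect and all 4 rose, beside 3.49% of all genes in either direction. Irf1, an interferon regulatory factor that binds class I promoters, was at 6.13 to 7.24 FPKM in C57-non-IR and 12.8 to 29.1 FPKM in C57-IR hearts. In Slit2-Tg hearts it was at 3.84 to 7.06 FPKM without IR and 13.7 to 20.2 FPKM after it, so that no IR heart overlapped its controls. The mean log2 fold change of Irf1 was 1.37 ± 0.19 (SE, limma adjusted p = 0.00393). Irf8, a myeloid interferon regulatory factor, rose by 0.82 ± 0.12 (limma adjusted p = 0.00419), Rela, the NF-kB p65 subunit, by 0.67 ± 0.11 (limma adjusted p = 0.00759) and Stat3, a cytokine signal transducer, by 0.49 ± 0.08 (limma adjusted p = 0.00671), each with its SE. Rfxap, a subunit of the RFX factor of MHC promoters, had −0.30 ± 0.11 (SE, limma adjusted p = 0.388) in C57-IR against C57-non-IR and 0.27 ± 0.11 (SE, limma adjusted p = 1.0) in Slit2-IR against C57-IR hearts, comparisons that share the C57-IR libraries.

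Nlrc5, the class I coactivator, had a mean IR effect of 0.08 ± 0.12 (SE, limma adjusted p = 0.857) and was under 1 FPKM in 11 of 12 libraries, with 1.49 FPKM in C57-IR replicate 2. Of 11 interferon and interferon receptor pathway genes, 9 passed the filter, and Socs3, a feedback inhibitor of cytokine signals, rose by 2.22 ± 0.34 (SE, limma adjusted p = 0.00543). Its relative Socs1 had an estimate of 0.83 ± 0.28 (SE, limma adjusted p = 0.16). Ifngr2, a chain of the interferon gamma receptor, had 0.17 ± 0.07 (SE, limma adjusted p = 0.26) and the kinase gene Tyk2 had −0.13 ± 0.06 (SE, limma adjusted p = 0.313). Ifng, the gene of interferon gamma, was not among those tested, with at most 0.266 FPKM.

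Of 13 genes of peptide processing and loading, 12 were tested and 1 passed the adjusted threshold in the mean IR effect, beside 3.49% of all genes. This was Calr, the chaperone calreticulin, which rose by 0.53 ± 0.12 (SE, limma adjusted p = 0.041). Pdia3 and Canx, further chaperones of class I folding, had estimates of 0.48 (limma adjusted p = 0.0695) and 0.26 (limma adjusted p = 0.0919). Tapbp, tapasin, which holds class I at the transporter, was at −0.04 ± 0.08 (SE, limma adjusted p = 0.897), and Psmb10 was at 0.03 ± 0.10 (SE, limma adjusted p = 0.929). None of the 3 constitutive subunits passed (smallest unadjusted p 0.694 in limma).

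Of 26 other heavy-chain genes, 13 were tested and none passed the adjusted threshold in the mean IR effect, beside 3.49% of all genes. At an unadjusted p under 0.05, 2 were higher and 1 lower, beside 1208 higher and 1214 lower of all 15240 genes. H2-Q5, a Qa-region gene, had 0.72 ± 0.19 (SE, limma adjusted p = 0.0686) and H2-K2 had 0.68 ± 0.20 (SE, limma adjusted p = 0.0953). H2-T24 was at −0.31 (limma adjusted p = 0.23). H2-T10 had a mean Slit2-Tg effect of −0.23 ± 0.07 (SE, limma adjusted p = 0.781). The median mean IR effect was 0.02 over the 13 tested, 0.04 over the processing and loading genes and 0.06 over the regulators, beside 0.30 over the members and 0.004 over all genes.

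**Figure D5:**
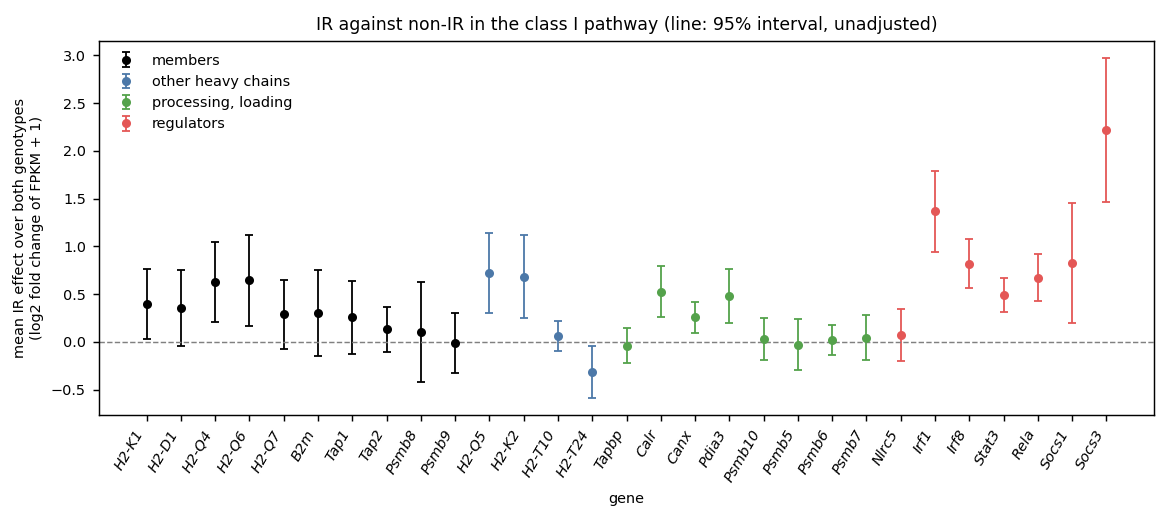
Mean IR effect over both genotypes (vertical axis, log2 fold change of FPKM + 1 with the unadjusted 95% interval) for the members and for named genes of the class I pathway. Irf1, at 1.37, and Socs3, at 2.22, lie above every member, the highest of which is H2-Q6 at 0.65, and Nlrc5, Tapbp and Psmb10 lie near 0.

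The genes whose levels followed the members most closely over the 12 libraries are given as a description, since 1 library is the highest for the members and for each of these genes. Against the mean z score of the members, Pearson's r over 11182 genes was highest for the interferon-induced genes Ifit1 (0.928) and Tgtp2 (0.928), followed by Ybx1-ps2 (0.907), Tubb2b (0.904) and the proteoglycan core gene Srgn (0.903). Without C57-IR replicate 2 the same r values were 0.842, 0.831, 0.831, 0.847 and 0.89 over 11 libraries. For H2-Q7 alone the closest were Smndc1 (0.887), Irgm1 (0.858) and Gbp4 (0.857), of which Irgm1 and Gbp4 are interferon-inducible GTPases, and these were 0.826, 0.619 and 0.666 without that library.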

How the data were processed

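The authors prepared libraries from heart RNA and deposited FPKM values per gene, 1 table per group with 3 hearts each. The submitters' processing notes name HISAT2 and mm10, and the gene counter is not given in the sources used here. FPKM multiplied by gene length came in whole multiples of 1 read in 100% of values above 0 (within 0.01 of a read), which gave the reads. Genes with the equivalent of 10 reads in at least 3 libraries, and 15 reads in all, were tested (15240). Log2(FPKM + 1) was fitted in limma 3.58.1 (R 4.3.3) over all 12 libraries with a mean-variance trend, and p-values were adjusted by Benjamini-Hochberg over all genes tested. The fit was tested on simulated counts. These gave all genes the same spread beyond counting error and held no outlying library, so they do not cover the spread seen here. The members and gene lists were chosen with earlier results of these data known. Values are given for the 10 members, for listed genes that pair with them (such as Psmb5, Tapbp and Nlrc5) and for listed genes with an unadjusted p under 0.05 in a comparison. Pirb, Cd8a, Ifng and Ifnb1 were named after their values were seen. The 5 genes most like the members and the 3 most like H2-Q7 are also named. Deviations of same-numbered hearts were positively correlated in every pair of groups. The values were 0.154 to 0.362 between the IR groups, 0.143 to 0.294 between the Slit2-Tg groups and 0.0833 to 0.295 between the C57 groups. Over all pairs the lowest was 0.0377 (replicate 2, C57-non-IR and Slit2-non-IR). The highest was 0.586 (replicate 1, C57-IR and Slit2-non-IR). This pairing rests on the data, since the labels name no shared day or litter. Differently numbered hearts were not correlated, so these values have no reference. Reads recovered from FPKM were also fitted by limma-voom, a choice made after seeing the data. The values of 1 further paired gene are not reported here.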

Additional observations from a re-analysis of the deposited data

How the results depend on the processing

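Each comparison rests on 3 hearts per group, and each member had at least 140 reads in every library; how much of the spread is counting error was not tested. Among 5 other settings run for all comparisons (a pseudocount of 0.1, no filter, 10 reads in every library, TMM scaling and limma-voom) and fits of only the groups compared, no member estimate given here changed direction. In Slit2-Tg hearts after IR, 1 member (H2-Q4) had an unadjusted p under 0.05 with only the groups compared (limma adjusted p = 0.429), with the replicate block (limma adjusted p = 0.298) and by limma-voom (adjusted p = 0.413), against 0 with all libraries and no block. In these fits 907, 1196 and 952 of 15240 genes were higher at that threshold. Scaling by TMM moved the median of all genes by less than 0.007 on the log2 scale. With the replicate number as a block, H2-D1 was also called in the mean IR effect at the unadjusted threshold (0.35, limma adjusted p = 0.167), adding 1 to 3 members there, and no other call of a member changed. Over all genes, 1440 of 15240 were higher there at that threshold. With the reads of H2-Q6 and H2-Q7 added up, the sum had a mean IR effect of 0.55 (limma adjusted p = 0.204) and passed the unadjusted threshold, where H2-Q7 alone had 0.29 (limma adjusted p = 0.443) and did not; in the IR groups the sum lost the unadjusted call of H2-Q7 (−0.59, limma adjusted p = 1.0).

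Leaving out each library in turn gave the following ranges, lowest to highest, for results that changed. The count of members with an unadjusted p under 0.05 was 0 to 6 for IR in C57 hearts, 0 to 2 for IR in Slit2-Tg hearts, 0 to 1 for Slit2-Tg without IR, 0 to 5 for Slit2-Tg after IR, 0 to 1 for the interaction, 2 to 6 for the mean IR effect and 0 to 4 for the mean Slit2-Tg effect. The count with an adjusted p under 0.05 was 0 to 1 for the mean IR effect and 0 in the other comparisons. Counts over all 15240 genes moved as well. For IR in C57 hearts, 473 genes were higher at the unadjusted threshold without C57-IR replicate 2 and 1036 without C57-IR replicate 1. The median over the members was 0.14 to 0.70 for IR in C57 hearts, −0.31 to 0.023 for Slit2-Tg without IR, −0.52 to 0.014 for Slit2-Tg after IR, −0.37 to 0.17 for the interaction, 0.074 to 0.40 for IR in Slit2-Tg hearts, 0.18 to 0.43 for the mean IR effect and −0.33 to −0.072 for the mean Slit2-Tg effect. The upper count came without C57-IR replicate 1, except for IR in Slit2-Tg hearts and Slit2-Tg without IR, where it came without Slit2-non-IR replicate 3. The cause was not tested.

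Members whose log2 fold change took both signs when 1 library was left out were these. For IR in C57 hearts they were Psmb8 (−0.27 to 0.41), Psmb9 (−0.22 to 0.041) and Tap2 (−0.023 to 0.25). For IR in Slit2-Tg hearts they were H2-Q7 (−0.15 to 0.22), Psmb8 (−0.057 to 0.37) and Psmb9 (−0.11 to 0.27). For Slit2-Tg without IR they were B2m (−0.41 to 0.0031), H2-D1 (−0.30 to 0.055), H2-K1 (−0.31 to 0.0033), H2-Q4 (−0.41 to 0.070), H2-Q6 (−0.32 to 0.16), H2-Q7 (−0.21 to 0.16) and Tap1 (−0.17 to 0.043). For Slit2-Tg after IR they were H2-D1 (−0.51 to 0.039), H2-K1 (−0.53 to 0.011), H2-Q4 (−0.54 to 0.017), Psmb8 (−0.46 to 0.23), Tap1 (−0.38 to 0.12) and Tap2 (−0.24 to 0.031), and for the mean IR effect Psmb8 (−0.061 to 0.28) and Psmb9 (−0.095 to 0.11). For the mean Slit2-Tg effect they were Psmb8 (−0.33 to 0.012) and Tap1 (−0.20 to 0.046). For the interaction they were B2m (−0.48 to 0.094), H2-D1 (−0.37 to 0.18), H2-K1 (−0.39 to 0.15), H2-Q4 (−0.37 to 0.19), Psmb8 (−0.26 to 0.43), Psmb9 (−0.061 to 0.32), Tap1 (−0.35 to 0.15) and Tap2 (−0.093 to 0.18). Over the 10 members, 7 comparisons and 12 libraries, 63 estimates changed sign when a library was left out, 25 kept their sign and passed the unadjusted threshold newly, 19 kept it and lost the threshold, and 733 did neither.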

Other observations

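Genes of MHC class II molecules, which present peptides from outside the cell, were counted beside the class I genes, together with the invariant chain gene Cd74. Of 9 listed genes, 7 were tested, and in the mean IR effect all 7 estimates were positive with a median of 0.55, beside 7815 positive estimates among all 15240 genes. None of the 7 passed an adjusted p under 0.05 in limma, beside 3.49% of all genes. H2-Ab1, a class II beta chain, was at 25.0 to 45.7 FPKM in C57-non-IR hearts, 33.5 to 92.4 FPKM in C57-IR hearts, 23.8 to 32.1 FPKM in Slit2-non-IR hearts and 46.2 to 51.1 FPKM in Slit2-IR hearts. Its mean log2 fold change was 0.65 ± 0.23 (SE, limma adjusted p = 0.164). Cd74, the invariant chain, had 0.57 ± 0.24 (SE, limma adjusted p = 0.257) and H2-Ob, a class II beta chain at under 0.31 FPKM in every library, had 0.11 ± 0.04 (SE, limma adjusted p = 0.2). C57-IR replicate 2 was 2.44-fold (H2-Aa) to 2.62-fold (H2-Eb1) above the mean of the other C57-IR hearts for the class II chains H2-Aa, H2-Ab1 and H2-Eb1.

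Of 11 listed genes of receptors for class I molecules and related receptors, 2 were tested. Lilrb4a, an inhibitory receptor of myeloid cells, is counted among the related receptors and not as a receptor of class I. Its level was 0.452 to 0.753 FPKM in C57-non-IR and 1.285 to 2.27 FPKM in C57-IR hearts. It rose after IR by a mean log2 fold change of 0.75 ± 0.13 (SE, limma adjusted p = 0.0109). Pirb, another inhibitory receptor, had an estimate of −0.13 ± 0.12 (SE, limma adjusted p = 0.704). Cd8a, the T cell coreceptor of class I, stayed at or under 0.063 FPKM in every library. Ifnb1, the gene of interferon beta, was listed at 0 in all 3 C57-non-IR hearts and at 0.153, 0.811 and 0.178 FPKM in the C57-IR hearts. It was at 0.0643, 0 and 0 FPKM in Slit2-non-IR hearts and at 0, 0.388 and 0.18 FPKM in Slit2-IR hearts. Ifnb1 was not tested. The study's list of genes raised by IR in C57 hearts also holds it, so its C57 values are not independent evidence.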
